A study of Mus musculus with 22 samples.

Results

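The 10 genes described here encode heat shock chaperones that are known targets of heat shock factor 1 (HSF1): Hsph1, Hspa1a, Hspa1b, Hspa8, Hsp90aa1, Hsp90ab1, Dnajb1, Hspd1, Hspe1 and Hspb1. They were chosen by name, with earlier results of these data known. Their rows were found by Ensembl identifier, with GRCm38 symbols, among the 34584 mouse genes of the count tables. RNA of 22 whole-organ samples was sequenced. In thymus and in cerebrum there were 4 libraries of Tol mice and 4 of WT littermates, and in cerebellum 2 of Tol and 4 of WT mice. All mice were C57BL/6. Tol mice were heterozygous for a transgene placed 3′ of Col1a1 in embryonic stem cells, in which the CAG promoter, active in most cell types, drives a long open reading frame of scrambled fragments of fluorescent proteins, luciferase and Cre recombinase. WT mice lacked it and received no other treatment, and the labels give neither age nor sex. The Tol protein is thought to be unfolded, so these genes address the question of whether its production is accompanied by a change in the transcripts of the folding machinery.

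HSF1 is the main transcription factor of the heat shock response. In unstressed cells it is held inactive by chaperones of the HSP70 and HSP90 families. When unfolded proteins occupy these chaperones, HSF1 forms trimers, enters the nucleus and binds heat shock elements, which are arrays of the bases GAA and their reverse complement TTC in alternation. Its targets include HSP70 proteins, which hold and refold unfolded chains, HSP110 proteins such as Hsph1, which exchange the nucleotide bound to HSP70, and DNAJ proteins such as Dnajb1, which bring clients to HSP70. HSP90 proteins act on clients that are close to folded, HSP60 and HSP10 (Hspd1 and Hspe1) form the folding chamber of mitochondria, and small heat shock proteins such as Hspb1 hold unfolded chains without using ATP. Hspa8 and Hsp90ab1 are the constitutive forms of their families, whereas Hspa1a, Hspa1b and Hsp90aa1 are the more inducible ones. The thymus is made up mostly of developing T cells, and the brain mostly of neurons and glia.

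To show which of these genes carry the letters of a heat shock element at their start, RefSeq promoter windows of GRCm38.p6, from 250 bases before to 50 after each start, were searched on both strands. The search used 3 units (GAANNTTCNNGAA or TTCNNGAANNTTC) and, within these and elsewhere, 2 units (GAANNTTC or TTCNNGAA). Windows were found for 7 of the 10 genes, and not for Hspa8, Hsp90aa1 and Hsp90ab1. The 3-unit motif was present for 3 of the 7 genes, Hsph1, Hspd1 and Hspe1, against 0.603% of all 32851 windows, and the 2-unit motif for 6 of the 7, all but Dnajb1, against 15.1% of all windows. A match is a description of letters and not evidence of binding. The sequences below were chosen because they hold the 3-unit matches and because Hsph1, Hspa1a and Hspa1b, on the one hand, and Hspb1, on the other, are contrasted in the thymus results. Capitals mark the motifs, and positions are counted from the start of the transcript.
Hsph1, 3-unit site at chr5:149636280-149636308, minus strand, from 8 to 36 bases after the second of its RefSeq starts: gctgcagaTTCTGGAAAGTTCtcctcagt
Hspe1, overlapping 3-unit sites at chr1:55088051-55088084, plus strand, which are also the sites of Hspd1 on the minus strand: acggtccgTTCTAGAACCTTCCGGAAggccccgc
Hsph1, the 100 bases before the first start, chr5:149636337-149636436, minus strand, with a 2-unit match: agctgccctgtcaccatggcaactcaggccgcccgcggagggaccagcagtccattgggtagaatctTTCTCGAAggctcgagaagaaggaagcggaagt
Hspa1a, the 130 bases before the start, chr17:34972157-34972286, minus strand, with a 2-unit match: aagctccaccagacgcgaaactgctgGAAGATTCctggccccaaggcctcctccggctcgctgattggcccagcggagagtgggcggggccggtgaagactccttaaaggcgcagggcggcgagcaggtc
Hspa1b, the 130 bases before the start, chr17:34959239-34959368, minus strand, with a 2-unit match: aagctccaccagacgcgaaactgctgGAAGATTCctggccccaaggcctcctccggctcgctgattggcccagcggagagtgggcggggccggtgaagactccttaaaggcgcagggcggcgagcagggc
Hspb1, the 130 bases before the start, chr5:135887789-135887918, plus strand, with 2-unit matches: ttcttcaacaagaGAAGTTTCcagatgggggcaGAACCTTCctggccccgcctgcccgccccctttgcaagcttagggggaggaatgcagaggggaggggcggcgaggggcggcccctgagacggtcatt
Hspd1 and Hspe1 start head to head on opposite strands and share the same sites, which lie from -144 to -127 of Hspd1 and from -89 to -72 of Hspe1. The windows of Hspa1a and Hspa1b agree at 247 of the 250 bases before the start and differ at 3.

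The genes differ in how well reads of 65 bases can be assigned to them, because some have near-identical copies. Of all stretches of 65 bases in the longest transcript, 0% were shared with another gene for Hsph1 and for Dnajb1, 1.95% for Hsp90ab1 and 5.0% for Hspe1. The share was 37.7% for Hspd1, 45.2% for Hspa8, 49.1% for Hspb1 and 55.1% for Hsp90aa1, mostly with pseudogenes. Hspa1a shared 55.0% with Hspa1b, its neighbour on chromosome 17 that encodes the same HSP70, so the split of counts between this pair is uncertain and their sum is given below as well. Hspd1 and Hspe1 have exons that overlap on opposite strands, and the libraries were stranded.

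Library totals ranged from 14543698 to 34776973 estimated counts, and thymus Tol 1 and thymus WT 4 were the deepest of their groups. The transgene transcript was at 26.6 ± 3.11 CPM (counts scaled to a common library depth with TMM factors; SD, n = 4) in the thymi of Tol mice, at 144 ± 11.2 CPM (SD, n = 4) in their cerebra and at 161 ± 31.5 CPM (SD, n = 2) in their cerebella, and every WT library held 0 to 2 counts of it. Markers of thymocytes, forebrain neurons and cerebellar neurons were highest in the organ of the label in all libraries but 1. Cerebellum Tol 2 stood apart: its 6 cerebellar neuron markers summed to 320 CPM, against 3417 in Tol 1 and 1512 to 3221 in the WT cerebella, a level that the cerebrum libraries also reached, at 131 to 398 CPM. Its forebrain neuron markers were at 24.0 CPM, against 257 to 548 in the other 5 cerebella, and its microglia markers, at 124 CPM, were the highest of the organ. Choroid plexus markers were at 1234 and 4381 CPM in cerebellum WT 2 and WT 4 and at 5.26 to 11.2 in the other 4. The main cerebellum values are therefore given with and without Tol 2. In thymus the log2 fold changes between genotypes ran with transcript length across genes (Spearman's rho -0.384 over 16199 genes, which are not independent). The numbers of thymus calls, and the fold changes of some genes, are therefore also given with that trend removed. The thymus counts by overlap, by sign and by unadjusted p are given without that step, as are the fold changes of the other genes.

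In thymus, 5 of the 10 chaperones were lower in every Tol library than in every WT library: Hsph1, Hspa8, Hspa1a, Hspa1b and Hsp90aa1. Such a separation downwards was found in 5.95% of the 16248 genes tested, and upwards, which was seen for 0 of the 10, in 5.81%. The only call among them was Hsph1, which fell by 57.0%. A call here means a p under 0.05 after Benjamini-Hochberg adjustment over all genes tested with edgeR's quasi-likelihood test, and 0.0985% of all genes were called in this comparison. At an unadjusted p under 0.05, 5 chaperones were lower in Tol thymus, against 11.1% of all genes, and 1 was higher, against 13.3%. In all, 8 of the 10 had a log2 fold change below 0, against 48.6% of all genes, and their median was -0.23, against 0.01. Because the 10 were chosen with earlier results of these data known, these counts describe them and do not test them as a set. The plot of levels by library in thymus gives every value.

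**Figure D1:**
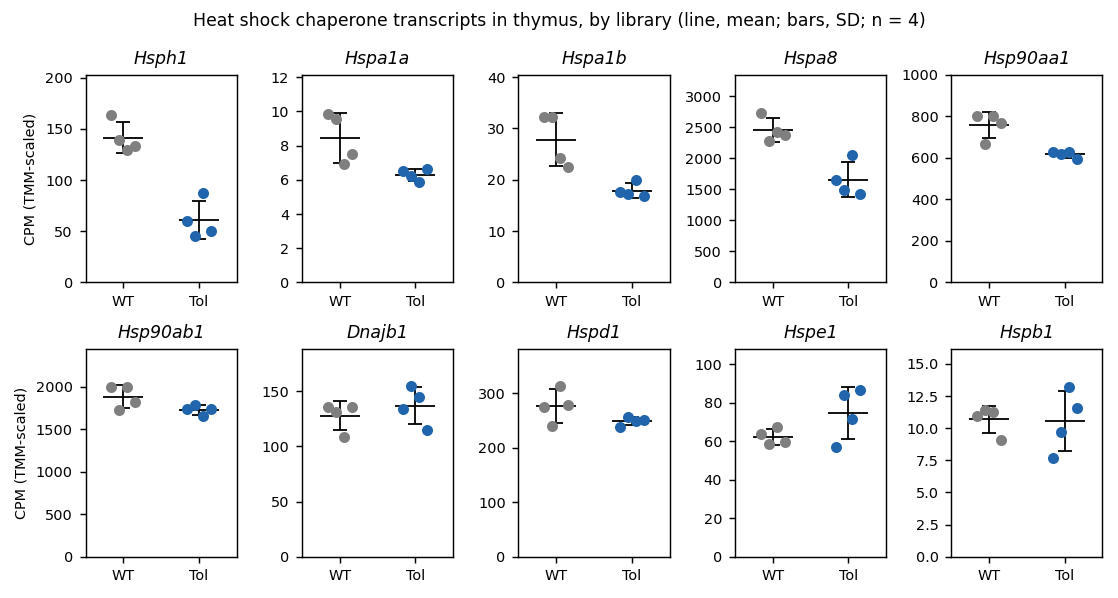
Level of the 10 chaperone transcripts in each thymus library (vertical axis, CPM scaled by TMM, each panel starting at 0) in WT (grey) and Tol (blue) mice, with the mean as a line and the SD as bars. For Hsph1 the 4 Tol libraries lie between 45.4 and 87.3 CPM and the 4 WT libraries between 129 and 163, whereas for Dnajb1, Hspe1 and Hspb1 the groups overlap.

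Hsph1 (HSP110; ENSMUSG00000029657; GRCm38 chromosome 5, 149614287 to 149636376, minus strand) is a nucleotide exchange factor of HSP70. It was at 60.4, 45.4, 87.3 and 49.9 CPM in the Tol thymi and at 163, 139, 129 and 134 CPM in the WT thymi. The highest Tol thymus, Tol 3, was below the lowest WT thymus, WT 3, and the spread was wide within Tol. The means were 60.8 ± 18.8 (SD, n = 4) and 141 ± 15.2 (SD, n = 4). On the log2 scale Tol over WT was -1.22, with a standard error of 0.17 and a 95% interval of -1.59 to -0.84 (edgeR adjusted p = 0.0303). By p it ranked 8 among the 16248 genes, and by log2 fold change 79 from the lowest. The call was lost when Tol 2, Tol 4, WT 1, WT 2, WT 3 or WT 4 was left out, with adjusted p of 0.0670, 0.111, 0.148, 0.108, 0.0519 and 0.0726 in that order, while the log2 fold change stayed between -1.44 and -1.10. With the trend with length and GC content removed it was -1.16 (edgeR adjusted p = 0.0240).

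**Figure D2:**
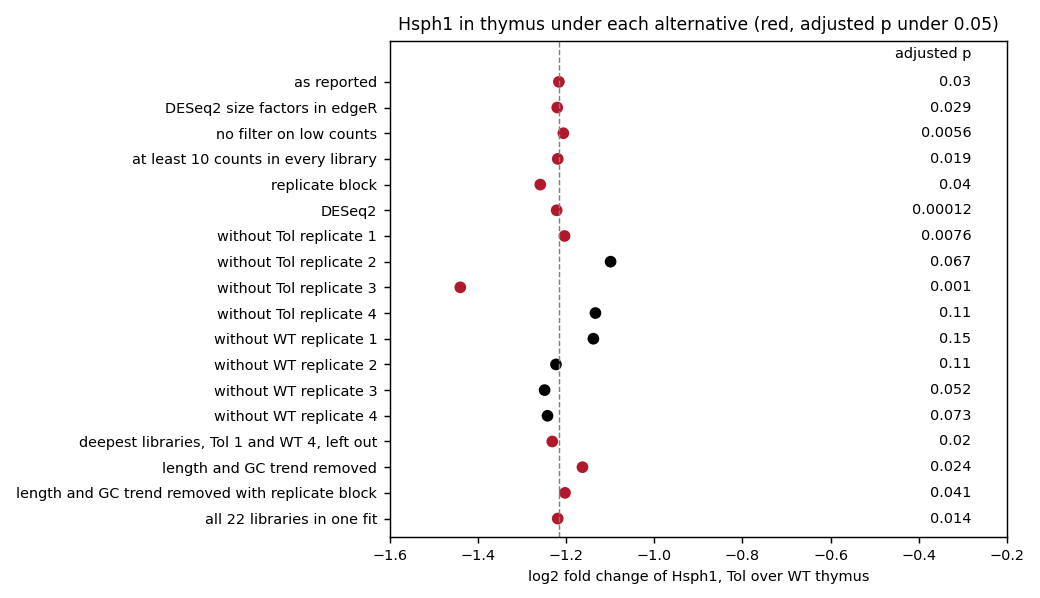
Log2 fold change of Hsph1 in Tol over WT thymus (horizontal axis, which does not reach 0) as reported and under each alternative, with the adjusted p at the right and calls in red. All values lie between -1.44 and -1.10, and each of the 6 fits without a call leaves out 1 library.

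Hspa8 (HSC70; ENSMUSG00000015656; chromosome 9, 40800984 to 40810087, plus strand) is the constitutive HSP70, and its gene also holds the small nucleolar RNAs Snord14c, Snord14d and Snord14e. Its level was 1648, 1489, 2049 and 1431 CPM in the Tol thymi and 2722, 2278, 2423 and 2372 CPM in the WT thymi. As for Hsph1, Tol 3 was the highest Tol library and Tol 2 and Tol 4 the lowest. Tol over WT was -0.57 on the log2 scale (standard error 0.11, 95% interval -0.81 to -0.32), and the difference did not pass the adjustment (edgeR adjusted p = 0.0640). It passed with DESeq2, another count test (adjusted p = 0.000107), and with the length trend removed (edgeR, -0.60, adjusted p = 0.0471), and over all alternatives the adjusted p of Hspa8 ran from 0.000107 to 0.214.

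Hspa1b (ENSMUSG00000090877; chromosome 17, 34956436 to 34959238, minus strand) and Hspa1a (ENSMUSG00000091971; chromosome 17, 34969190 to 34972156, minus strand) are single-exon genes for the inducible HSP70. Hspa1b was at 17.7, 17.2, 19.9 and 16.8 CPM in Tol thymus and at 32.2, 32.2, 24.2 and 22.5 CPM in WT thymus. Hspa1a, which overlaps Gm20481 on the other strand, was at 6.54, 6.22, 5.85 and 6.61 CPM in Tol thymus and at 9.87, 9.55, 6.93 and 7.51 CPM in WT thymus. For both, WT 1 and WT 2 were the high libraries, and WT 3 and WT 4 lay closer to the Tol libraries. For Hspa1b the log2 ratio of Tol over WT was -0.63 (95% interval -0.90 to -0.36, edgeR adjusted p = 0.0641) and for Hspa1a -0.42 (95% interval -0.71 to -0.13, edgeR adjusted p = 0.111). Summed over the pair, which removes the uncertainty of the split, the level was 24.2 ± 1.12 CPM (SD, n = 4) for the thymi of Tol mice and 36.2 ± 6.57 (SD, n = 4) for those of WT mice. The groups of this sum did not overlap either.

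The HSP90 genes followed with smaller differences. Hsp90aa1 (ENSMUSG00000021270; chromosome 12, 110690605 to 110702728, minus strand), the inducible HSP90, was at 627, 618, 628 and 595 CPM in Tol against 802, 666, 801 and 765 CPM in WT thymus. The Tol libraries lay close together and below all WT libraries, of which WT 2 was the nearest. The log2 ratio was -0.30 (95% interval -0.45 to -0.14, edgeR adjusted p = 0.0830). Hsp90ab1 (ENSMUSG00000023944; chromosome 17, 45567775 to 45573271, minus strand), the constitutive form, ranged from 1651 to 1783 CPM in the Tol thymi and from 1725 to 2002 CPM in the WT thymi, and the groups overlapped. Its log2 ratio was -0.12 (95% interval -0.28 to 0.03, edgeR adjusted p = 0.290).

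Dnajb1 (HSP40; ENSMUSG00000005483; chromosome 8, 83608193 to 83612653, plus strand), the J-domain partner of the inducible HSP70, did not separate the genotypes. It was at 134, 155, 144 and 115 CPM in Tol against 136, 131, 109 and 136 CPM in WT thymus. Tol over WT was 0.10 on the log2 scale, with a 95% interval of -0.12 to 0.31 (edgeR adjusted p = 0.569).

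The mitochondrial pair, which shares the promoter stretch shown above, had log2 fold changes of opposite sign in thymus, and neither passed the adjustment. Hspd1 (HSP60; ENSMUSG00000025980; chromosome 1, 55077835 to 55088243, minus strand) was at 239, 257, 249.5 and 251 CPM in Tol against 275, 240, 315 and 278 CPM in WT thymus, and its log2 ratio was -0.15 (95% interval -0.33 to 0.02, edgeR adjusted p = 0.253). Hspe1 (HSP10; ENSMUSG00000073676; chromosome 1, 55088132 to 55091307, plus strand) was at 57.1, 84.1, 71.3 and 86.7 CPM in Tol against 63.9, 58.6, 67.6 and 59.4 CPM in WT thymus. Tol 1 was the lowest of all 8 libraries and the other Tol libraries were the highest. The log2 ratio was 0.26 (95% interval 0.01 to 0.51, edgeR adjusted p = 0.197), and 0.09 with the length trend removed (edgeR adjusted p = 0.558). Without Tol 1 it was 0.38 (edgeR adjusted p = 0.0127). The difference between Hspd1 and Hspe1 was not tested.

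Hspb1 (HSP25; ENSMUSG00000004951; chromosome 5, 135887919 to 135889563, plus strand), a small heat shock protein, was at 7.71, 9.74, 13.2 and 11.6 CPM in Tol against 10.9, 11.4, 11.3 and 9.11 CPM in WT thymus. The Tol libraries spanned the WT range on either side. Its log2 ratio was -0.02 (95% interval -0.36 to 0.32, edgeR adjusted p = 0.954), and the sign turned when the deepest libraries were left out.

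How many chaperones were called in thymus depended on the libraries and on the tool. With Tol 1, the deepest library, left out, 5 were called (Hsph1, Hspa1b, Hspa8 and Hsp90aa1 lower and Hspe1 higher), where 18.2% of all genes were called. With Tol 3 left out, 2 were called (Hsph1 and Hspa8), against 0.591% of all genes. With any of the other 6 libraries left out (Tol 2, Tol 4 or any WT library) the count was 0. Of all genes, 0.0426% were called without WT 4 and 0.0% without any of the others of these 6. DESeq2 called 4 (Hsph1, Hspa1b, Hspa8 and Hsp90aa1), and 7.79% of all genes. The same 4 were called by edgeR with the length trend removed, against 0.455% of all genes. Each of the 4 had a negative log2 fold change under every alternative run in thymus.

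In whole thymus, fewer cells of a type and less RNA per cell cannot be told apart. The 8 thymocyte markers summed to between 7145 and 9287 CPM in the Tol thymi and between 9013 and 10333 CPM in the WT thymi, with 3 of 8 lower in Tol by log2 fold change. The summed skeletal muscle markers were the only one of the 13 marker lists whose thymus groups did not overlap, with 23.5 to 26.8 CPM for Tol mice against 18.4 to 22.1 for WT mice. The deviations of single libraries ran with transcript length at a rho of -0.421 to -0.292 in Tol 2, Tol 3 and Tol 4, 0.301 in Tol 1 and 0.0911 to 0.339 in the WT thymi. The part of cell makeup in the chaperone differences was not tested.

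Around these 10 genes, 8 lists of the chaperone network were read: heat shock factors and their regulators, other HSP70, HSP110 and HSP90 proteins, co-chaperones of HSP70 and of HSP90, small heat shock proteins, the cytosolic chaperonin CCT, mitochondrial proteostasis and other heat-inducible HSF1 targets. Of the 70 genes, 69 were in the tables (Cct6a was not analysed here) and 64 were tested in thymus. None was called by edgeR. At an unadjusted p under 0.05, 18 were lower and 5 higher, against 11.1% and 13.3% of all genes, and 32 of the 64 had a log2 fold change below 0, with a median of 0.00. Every Tol library was below every WT library for 15 genes, and above for 0, against 5.95% and 5.81% of all genes. DESeq2 called 11, against 7.79% of all genes.

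For each list, counts at an unadjusted p under 0.05 stand against 11.1% of all genes lower and 13.3% higher. The HSP90 co-chaperones bring clients to HSP90 and pace its cycle. At that threshold 6 of their 11 genes were lower and 0 higher, with a median log2 fold change of -0.17. Their leading gene was Chordc1, at 101, 100.1, 131 and 104 CPM in Tol and 162, 144, 144 and 148 CPM in WT thymus. No Tol thymus reached the WT range, and the log2 ratio was -0.46 (edgeR adjusted p = 0.0629). Of the 12 other HSP70, HSP110 and HSP90 genes, 5 were lower and 1 higher at an unadjusted p under 0.05, with a median of -0.13. They were led by Hspa4l, an HSP110 protein, at -0.31 (edgeR adjusted p = 0.0841). Hspa4l was at 95.8, 82.6, 89.0 and 78.8 CPM in Tol against 112, 106, 95.9 and 114 CPM in WT thymus, so that Tol 1 and WT 3 nearly met.

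Among the HSP70 co-chaperones, 3 of 13 were lower and 2 higher at an unadjusted p under 0.05, with a median of 0.03. St13, which is also called Hip, led with 138, 147, 173 and 146 CPM in Tol and 209, 193, 208 and 204 CPM in WT thymus. Its log2 ratio was -0.43 (edgeR adjusted p = 0.0548). Of the other HSF1 targets, 2 of 6 were lower at an unadjusted p under 0.05 and 0 higher, with a median of -0.10. P4ha1, a collagen prolyl hydroxylase subunit, led at -0.48 (edgeR adjusted p = 0.0548). P4ha1 was at 32.7, 31.6, 39.8 and 32.3 CPM in Tol against 46.0, 51.1, 47.4 and 45.5 CPM in WT thymus. The leading gene of each list was picked by its lowest p in these same libraries. For St13 and P4ha1 the genotypes did not overlap, as for 5.95% of all genes downwards.

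In each of the remaining 4 lists at most 2 genes had such a p. Of the 5 heat shock factors and regulators tested, 1 was higher and 1 lower at an unadjusted p under 0.05. Hsbp1, which binds the trimer of HSF1, led at 0.24 (edgeR adjusted p = 0.1005), which was 0.07 with the length trend removed. Hsf1 itself, named after its values were seen, lay between 39.8 and 51.4 CPM in the Tol thymi and between 52.4 and 53.8 in the WT thymi (-0.22 on the log2 scale, edgeR adjusted p = 0.122). Of the 7 CCT subunits, 1 was lower at an unadjusted p under 0.05 (Cct3, -0.15, edgeR adjusted p = 0.189). Of the 6 mitochondrial genes, 1 was higher at such a p (Lonp1, 0.18, edgeR adjusted p = 0.196). Of the 4 small heat shock proteins, 0 had such a p (Hspb6 led at 0.33, edgeR adjusted p = 0.245).

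In cerebrum, where the transgene transcript was higher than in thymus, 0 of the 10 chaperones were called, as were 0.0% of the 15596 genes tested with edgeR. At an unadjusted p under 0.05, 2 were lower in Tol (Dnajb1 and Hspe1), against 4.85% of all genes, and 0 were higher, against 4.81%. DESeq2 called 0 as well. No chaperone separated the genotypes downwards (3.12% of all genes did) or upwards (3.38%). Although 9 of the 10 had a log2 fold change below 0, against 51.4% of all genes, the values were small, with a median of -0.08 against 0.00.

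Hsph1 was at 309.8, 305, 330.2 and 329.9 CPM in Tol against 319.7, 348, 325 and 342 CPM in WT cerebrum. The groups overlapped, and the log2 fold change was -0.07, with a 95% interval of -0.20 to 0.07 (edgeR adjusted p = 0.764) that does not reach the thymus value. Hspa8 lay between 1702 and 1904 CPM in the Tol cerebra and between 1780 and 2043 in the WT cerebra (-0.10 on the log2 scale, edgeR adjusted p = 0.736). Hspa1b was the only member above 0, at 0.19 (edgeR adjusted p = 0.754), with 9.86 to 13.7 CPM for Tol mice against 7.94 to 12.4 for WT mice.

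Dnajb1 had the lowest p of the 10 in cerebrum. It was at 49.7, 42.2, 48.6 and 39.1 CPM in Tol against 57.9, 55.3, 46.9 and 66.2 CPM in WT cerebrum. WT 3 lay within the Tol range. Its log2 ratio of Tol over WT was -0.33 (95% interval -0.59 to -0.07, edgeR adjusted p = 0.396). Hspe1 was at 25.9, 29.0, 26.7 and 31.1 CPM in Tol against 31.6, 30.7, 32.0 and 32.7 CPM in WT cerebrum, for a log2 ratio of -0.17 (edgeR adjusted p = 0.481), with only Tol 4 above a WT library. The other 5 (Hspa1a, Hsp90aa1, Hsp90ab1, Hspd1 and Hspb1) had log2 fold changes between -0.11 and 0.00. Of the 64 network genes tested in cerebrum, 0 were called by edgeR. A log2 fold change below 0 was found for 52, against 51.4% of all genes, and the median was -0.07. At an unadjusted p under 0.05, 5 were lower and 0 higher, against 4.85% and 4.81% of all genes. For 3 of the 64 every Tol cerebrum was below every WT cerebrum, and for 0 above, against 3.12% and 3.38% of all genes. DESeq2 called 2, and 1.18% of all genes.

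In cerebellum, with 2 Tol libraries, 0 of the 10 chaperones were called, as were 0.0% of the 16662 genes tested with edgeR, and DESeq2 also called 0, with 0.06% of all genes called. None had an unadjusted p under 0.05 (1.22% of all genes were lower and 1.94% higher by that rule), and for none did the genotypes separate (4.59% of all genes downwards and 6.19% upwards). The log2 fold change was below 0 for 5 of the 10, against 48.2% of all genes, with a median of -0.01 against 0.01. Hsph1 was at 113 and 221 CPM in the Tol cerebella and at 149, 214, 132 and 149 CPM in the WT cerebella. The Tol libraries were the lowest and the highest of the 6, and the high values were those of Tol 2 and WT 2, which also had the lowest cerebellar neuron markers, at 320 and 1512 CPM, and the highest microglia markers, at 124 and 98.3 CPM.

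In cerebellum the log2 ratio of Hsph1 was 0.06 (95% interval -0.71 to 0.83, edgeR adjusted p = 0.982), -0.51 without Tol 2 and 0.46 without Tol 1. Without Tol 2 all 10 chaperones had a log2 fold change below 0 in cerebellum, from -0.51 to -0.05 with a median of -0.18, as had 53.1% of all genes. Hspa1b had the lowest value with both Tol libraries, -0.34 (95% interval -0.82 to 0.14; -0.24 without Tol 2), with 6.81 and 5.78 CPM in the Tol cerebella against 6.31 to 8.92 in the WT cerebella. Cerebellum Tol 1 and WT 3 were below the organ mean for all 10 genes, as cerebrum WT 4 was above it for all 10, which the map of deviations by library shows. Of 66 network genes tested, 1 was lower at an unadjusted p under 0.05 (Bag3, an HSP70 exchange factor named after its values were seen, -0.69, edgeR adjusted p = 0.957) and 0 were higher, and 0 were called by edgeR or DESeq2. Of all genes, 1.22% were lower and 1.94% higher at an unadjusted p under 0.05. The genotypes did not overlap for 1 network gene downwards and 4 upwards, against 4.59% and 6.19% of all genes. Without Tol 2, of 67 network genes tested, 1 was lower at an unadjusted p under 0.05 (Chordc1), 0 were higher and 0 called, with a median log2 fold change of -0.05.

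**Figure D3:**
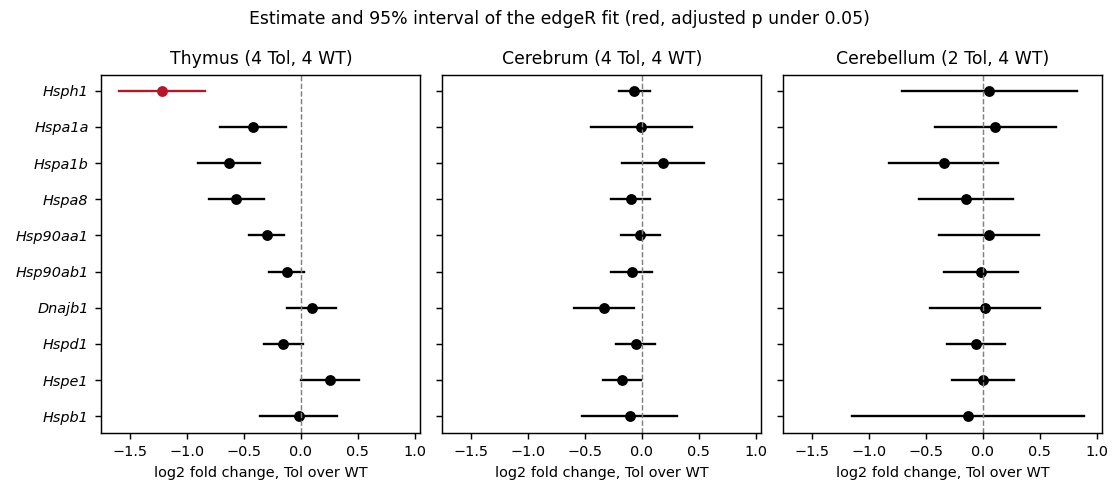
Log2 fold change of Tol over WT (horizontal axis) for each chaperone in thymus, cerebrum and cerebellum, with points for the edgeR estimate and bars for its 95% interval. Only Hsph1 in thymus (red) passes the adjusted threshold, and the cerebellum intervals are the widest, with 2 Tol libraries.

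Whether the effect of Tol differed between organs was tested as an interaction of genotype and organ. For cerebrum against thymus, 1 of the 10 was called, against 0.107% of 17774 genes. This was Hsph1, whose log2 fold change was higher by 1.14 in cerebrum (standard error 0.21, 95% interval 0.71 to 1.58, edgeR adjusted p = 0.0399). At an unadjusted p under 0.05 the difference was positive for 4 (Hsph1, Hspa1b, Hspa8 and Hsp90aa1), against 6.64% of all genes. It was 0.81 for Hspa1b (edgeR adjusted p = 0.113), 0.47 for Hspa8 (edgeR adjusted p = 0.139) and 0.28 for Hsp90aa1 (edgeR adjusted p = 0.189). Dnajb1 and Hspe1 differed the other way, by -0.43 (edgeR adjusted p = 0.203) and -0.44 (edgeR adjusted p = 0.155). The call of Hsph1 held in 3 of the 16 fits that left out a library, those without thymus Tol 1, thymus Tol 3 or cerebrum WT 3, and the adjusted p ran from 0.000824 to 0.125 over the 16. Of all genes, 6.22%, 0.111% and 0.233% were called in these 3 fits, in that order. A block on replicate number ended the call (1.19, edgeR adjusted p = 0.155), and 0.0% of all genes were then called. In cerebrum the log2 fold changes ran with transcript length the other way from thymus (Spearman's rho 0.157 over 15554 genes, which are not independent). Neither trend was removed in this test.

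For cerebellum against thymus, 0 were called by edgeR, against 0.0% of 18863 genes, and 0 by DESeq2, against 0.541%. At an unadjusted p under 0.05, 4 differences were positive, against 5.91% of all genes: Hsph1, Hspa1a, Hspa8 and Hsp90aa1. The difference for Hsph1 was 1.299 (95% interval 0.53 to 2.07, edgeR adjusted p = 0.382). It was 0.75 without cerebellum Tol 2 and 1.68 without cerebellum Tol 1. These 2 fits leave 1 Tol cerebellum, so only their effect sizes are given. Among the alternatives the highest adjusted p of Hsph1 was 0.798. Both interactions share the thymus libraries and are not independent of each other.

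**Figure D4:**
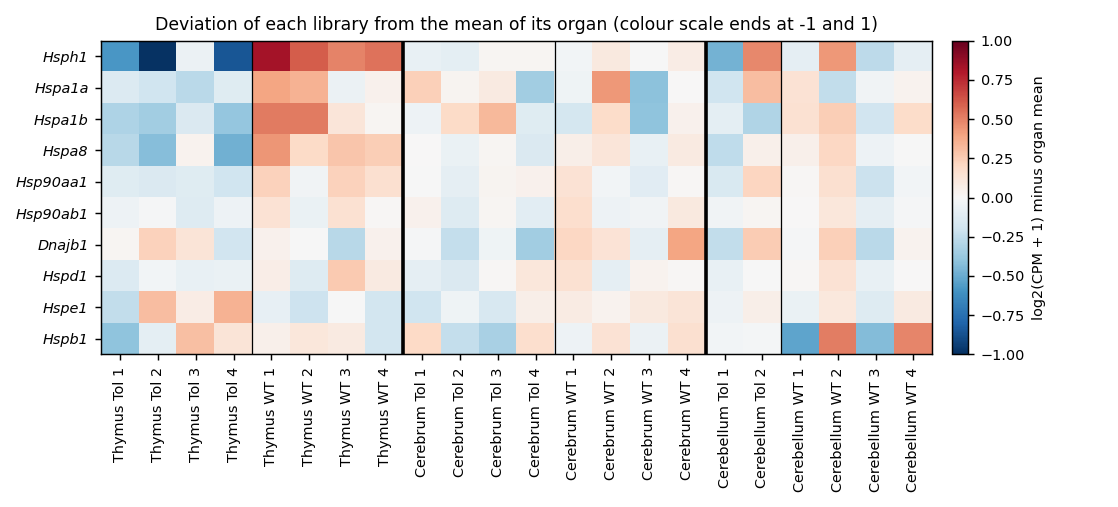
Deviation of log2(CPM + 1) of each chaperone (rows) in each library (columns) from the mean of its organ, blue below and red above, with the colour scale ending at -1 and 1. Hsph1 in thymus has the deepest colours, from -0.99 in Tol 2 to 0.83 in WT 1, and the deviations of Hspb1 in cerebellum run from -0.52 in WT 1 to 0.51 in WT 2.

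The level of each chaperone in WT organs was compared per transcript length, as TPM, in which counts are divided by the length of the longest transcript and scaled to a common total. Hspa8 and Hsp90ab1 led in all 3 organs. In WT thymus they were at 1885 ± 149 and 1816 ± 106 TPM (SD, n = 4), a pair whose libraries overlapped. Hsp90aa1 came next, at 561 ± 35.01 TPM, then Hspd1 at 277 ± 22.7, Hspe1 at 157 ± 8.50, Dnajb1 at 104 ± 12.1 and Hsph1 at 72.2 ± 8.84 TPM (SD, n = 4 each). Hspb1 at 27.97 ± 3.33 and Hspa1b at 24.2 ± 5.18 TPM overlapped as well, and Hspa1a was last at 6.96 ± 1.39 TPM (SD, n = 4 each). With the mean transcript length in place of the longest, Hsph1 was at 106 TPM and ranked 5 instead of 7. Hspa8 was then at 2917, Hsp90ab1 at 3130 and Dnajb1 at 64.1 TPM in WT thymus. The SDs do not cover this dependence of nearly all levels on the length used.

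In WT cerebrum Hsph1 stood at 182 ± 9.06 TPM (SD, n = 4), rank 4 of the 10, overlapping with Hspd1 at 156 ± 15.8 TPM. Hspa8 (1598 ± 131 TPM) and Hsp90ab1 (1405 ± 158 TPM) again overlapped, and Hsp90aa1 was at 858 ± 96.7 TPM. At the low end Hspb1 (10.8 ± 1.22 TPM), Hspa1a (9.94 ± 2.53 TPM) and Hspa1b (9.47 ± 1.83 TPM) were not separated. In WT cerebellum Hsph1 was at 92.1 ± 19.0 TPM, overlapping with Hspe1 at 99.7 ± 8.95 TPM, and Hspa1b (7.78 ± 0.98 TPM) could not be separated from Hspa1a (7.65 ± 0.95 TPM; SD, n = 4 each). Summed over the 10 genes, the level was 3779 ± 286 TPM (SD, n = 4) in Tol and 4932 ± 290.0 TPM (SD, n = 4) in WT thymus, 4251 ± 372 and 4364 ± 390 TPM in cerebrum (SD, n = 4), and 3983 ± 202 (SD, n = 2) and 4236 ± 263 TPM (SD, n = 4) in cerebellum, where Tol 1 alone was at 3840 TPM. The thymus sums did not overlap, and those of cerebrum and of cerebellum with both Tol libraries did. TPM uses no TMM factors, and the trend with length in thymus was not removed from it. Hspd1 (229 to 241 TPM in Tol and 252 to 307 in WT thymus) and Hsp90ab1 (1527 to 1643 and 1715 to 1932) separated in TPM but overlapped in CPM. Mean Hspa8 was 1199 TPM in Tol against 1885 in WT thymus. Dnajb1 (104 against 104) and Hspe1 (176 against 157) were not lower in Tol thymus.

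**Figure D5:**
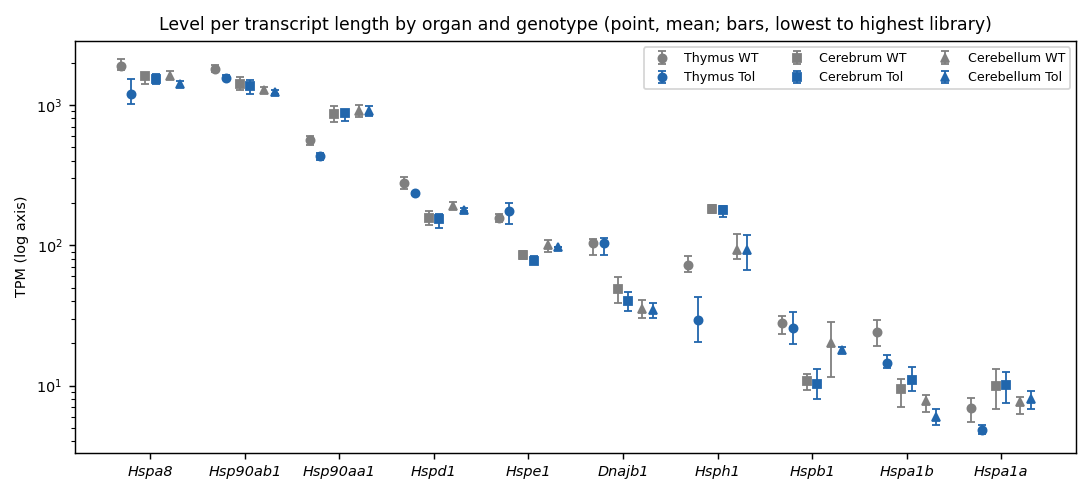
Level per transcript length (vertical log axis, TPM over the longest transcript) of each chaperone in WT (grey) and Tol (blue) thymus, cerebrum and cerebellum, with points for means and bars from the lowest to the highest library. Hspa8 and Hsp90ab1 are the highest in every group, and Hsph1 runs from 29.3 TPM in Tol thymus to 182 in WT cerebrum.

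Between WT organs the chaperones did not all move in the same direction. In cerebrum against thymus 8 of the 10 were called with edgeR, 3 higher and 5 lower, where 40.9% of 17413 genes were called higher and 43.4% lower. Hsph1 had the largest rise of the 10, by 1.65 on the log2 scale of CPM (edgeR adjusted p = 9.09e-08), followed by Hsp90aa1 (0.93) and Hspa1a (0.84). Hspb1 (-1.05), Hspa1b (-1.03), Dnajb1 (-0.76), Hspe1 (-0.56) and Hspd1 (-0.52) were lower, while Hspa8 (0.08) and Hsp90ab1 (-0.05) were not called. The near-identical pair Hspa1a and Hspa1b thus had opposite signs, and the part of the split of their shared reads in this contrast was not tested. Their sum was 36.2 ± 6.57 CPM in WT thymus, 21.6 ± 4.89 in WT cerebrum and 16.3 ± 1.42 in WT cerebellum (SD, n = 4 each).

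In WT cerebellum against WT thymus 7 were called, 2 higher (Hsp90aa1 0.78 and Hsph1 0.45) and 5 lower, from Hspa1b at -1.53 to Hsp90ab1 at -0.41, where 41.7% of all genes were called higher and 41.8% lower. In cerebellum against cerebrum 6 were called. Hsph1 (-1.20), Dnajb1 (-0.69), Hspa1a (-0.60), Hspa1b (-0.50) and Hsp90ab1 (-0.36) were lower and Hspb1 (0.68, edgeR adjusted p = 0.0469) was higher, where 24.6% of all genes were called lower and 26.4% higher. The call of Hspb1 was kept in 2 of the 12 fits that left out a library, with adjusted p from 0.0109 to 0.148, and was lost with other size factors, without a filter and with the replicate block. Without cerebrum WT 2, 3 chaperones were called, where 46.3% of all genes were. The Hspb1 values in WT cerebellum fell apart, at 4.11 and 4.45 CPM in WT 1 and WT 3 and at 9.46 and 9.31 CPM in WT 2 and WT 4, the libraries with choroid plexus markers, whose part in this difference was not tested. These 3 comparisons share libraries, so they are not independent.

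The genes whose levels ran most like those of Hsph1 were looked for among 14086 genes present in all 3 organs, as Pearson's r of log2(CPM + 1) over the 22 libraries after the mean of each organ was subtracted. Genotype differences and library differences both enter this measure. The highest r was that of Hspa8 (0.942), followed by Chordc1 (0.920), the J-domain protein gene Dnaja1 (0.861), Fermt2 (0.858), which encodes an integrin adaptor, and Cav1 (0.854), which encodes the main protein of caveolae. Over the 8 cerebrum libraries r was 0.495 for Hspa8, 0.849 for Chordc1, 0.514 for Dnaja1, 0.448 for Fermt2 and -0.144 for Cav1. Over the 6 cerebellum libraries it was 0.843, 0.872, 0.913, 0.946 and 0.810 in the same order. Of the other chaperones Hsp90aa1 had an r of 0.796, Hspa1b of 0.654, Hspa1a of 0.469, Hspd1 of 0.445 and Hsp90ab1 of 0.428. Hspb1 (0.239), Dnajb1 (0.155) and Hspe1 (-0.399) ran least like it, and Dnajb1 was at -0.198 over the thymus libraries and 0.952 over those of cerebellum.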

How the data were processed

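Strand-specific, poly(A)-selected libraries of frozen organs were read on a HiSeq 2500 as single reads. Salmon 0.14.1 was used by the authors to assign reads to GRCm38 cDNA and the Tol sequence, and each expected count they deposited is Salmon's estimated count of reads for a gene in a library, written as a whole number and not normalized or pooled. There are 3 tables of 34585 entries, Tol included, and the submitters' notes also name edgeR 3.9. Libraries were grouped by the labels' tissue and genotype, and 0 columns were left unassigned; the tables head the Tol columns with MRT, read as the multiple reporter tolerant genotype.

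From the deposited counts, edgeR 4.0.16 in R 4.3.3 was run per organ on all genes (TMM, filterByExpr, quasi-likelihood F test, Benjamini-Hochberg), with an interaction fit for differences between organs and a fit of the WT libraries for organs. All 10 chaperones passed the filter in every fit. CPM used TMM factors within the organ. Symbols came from GENCODE vM21 (34465 identifiers matched). The script was tested on simulated data. No 2 libraries of a group were identical (chi-square per degree of freedom 4.04 to 161.2), so each counted as a replicate. The sources give Tol and WT mice as littermates. Organs of the same mice may have entered, which the interaction fits did not model, and p-values measure only the spread between these samples.

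Named genes were the 10 chaperones, network genes called at an adjusted p under 0.05, the lowest unadjusted p of each list in thymus, and the 5 genes most like Hsph1; others are marked as chosen later. The members and lists were chosen with earlier results of these data known. Alternatives were other size factors, DESeq2 1.42.0, no filter, at least 10 counts in every library, all 22 libraries in a common fit, removal of each library's trend with length and GC content (loess span 0.3), the replicate number as a block, and each library left out. Leaving out thymus Tol 1 and WT 4 together was added after seeing the data. At these depths a gene under 3 counts in a library was not detectable, a floor for counting error only.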

Additional observations from a re-analysis of the deposited data

Results flagged for a closer look

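The effect of Tol on Hsph1 differed between organs: its log2 fold change was higher by 1.14 in cerebrum than in thymus by the interaction test (95% interval 0.71 to 1.58, edgeR adjusted p = 0.0399). Each thymus library of Tol mice was below each of WT mice, and the cerebrum groups overlapped. The call was kept without thymus Tol 1 (adjusted p = 0.0141), thymus Tol 3 (0.000824) or cerebrum WT 3 (0.0421). Of all genes, 6.22%, 0.111% and 0.233% were called in these fits. The call of Hsph1 was lost without any other thymus library (0.0570 to 0.125) or any other cerebrum library (0.0633 to 0.0789), with differences from 1.02 to 1.37 throughout. At most 0.0667% of all genes were called in the fits that lost it. A block on replicate number also ended the call of Hsph1 (1.19, adjusted p = 0.155), with 0.0% of all genes called. None of the 50 sets of 4 chaperone levels tested held a library set apart by Dixon's criterion, which chance would mark in about 1 of 20.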

How the results depend on the processing

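In thymus, 3 chaperones were called without a filter, 3 with at least 10 counts in every library, 4 by DESeq2, 4 with the length and GC trend removed, 2 with all 22 libraries in a common fit and 5 without the deepest libraries; with each library left out the count ran from 0 to 5. Of all genes, 0.484%, 0.568%, 7.79%, 0.455%, 0.153% and 11.1% were called in these 6 fits, and 18.2% without Tol 1. For the network genes these counts were 4, 3, 11, 3, 1 and 9, and 0 to 14. In cerebrum, 2 network genes were called by DESeq2 and 1 in the common fit. For cerebrum against thymus, 3 chaperones were called by DESeq2 and 3 without the deepest libraries, with 2.78% and 3.73% of all genes. With a library left out the count was 0 to 3, the 3 being without thymus Tol 1, where 6.22% of all genes were called. For cerebellum against thymus it was 0 in every fit that left out a library and kept both Tol cerebella. For WT cerebellum against cerebrum it was 3 to 6, the 3 being without cerebrum WT 2. There Hspb1 was not called with other size factors (0.64, edgeR adjusted p = 0.0577) or without a filter (0.66, 0.0645), and Hspa8 was called with other size factors (-0.25, edgeR adjusted p = 0.0341).

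The replicate number was also fitted as a block. Deviations of same-numbered Tol and WT libraries correlated at -0.177 to 0.0669 in thymus, -0.415 to 0.495 in cerebrum and -0.207 to 0.681 in cerebellum. The r was over 0.1 for 0 of 4 pairs in thymus, 2 of 4 in cerebrum and 1 of 2 in cerebellum. From so few pairs it cannot be told whether the numbers pair the samples. With the block, Hsph1 in thymus was at -1.26 (edgeR adjusted p = 0.0397), and 0 chaperones were called for cerebrum against thymus (Hsph1 1.19, edgeR adjusted p = 0.155). Hspb1 in WT cerebellum against cerebrum was at 0.62 (adjusted p = 0.0607). Signs turned under the block for Hspa1a in cerebrum (0.0097), Hsph1 (-0.17), Hsp90aa1 (-0.057), Dnajb1 (-0.11) and Hspe1 (-0.017) in cerebellum, and Hspb1 for cerebellum against thymus (0.055).

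Other signs turned for values near 0 that were not called: Hspb1 in thymus without the deepest libraries (0.049), Dnajb1 in cerebellum without a filter (-0.0064) and in the common fit (-0.010), and Hspe1 in cerebellum with other size factors (-0.0082), without a filter (-0.019), by DESeq2 (-0.0079) and in the common fit (-0.024). With each library left out, log2 fold changes crossed 0 for Hspb1 in thymus (-0.15 to 0.12), for Hspa1a (-0.13 to 0.17), Hsp90aa1 (-0.050 to 0.042) and Hspb1 (-0.22 to 0.0059) in cerebrum, and in cerebellum for Hsph1 (-0.51 to 0.46), Hspa1a (-0.21 to 0.36), Hsp90aa1 (-0.15 to 0.22), Hsp90ab1 (-0.046 to 0.0060), Dnajb1 (-0.27 to 0.25), Hspe1 (-0.061 to 0.055) and Hspb1 (-0.33 to 0.055). The same held for Hspb1 (-0.22 to 0.029) in cerebrum against thymus, Dnajb1 (-0.33 to 0.16) and Hspb1 (-0.26 to 0.11) in cerebellum against thymus, and Hspe1 (-0.036 to 0.021) in WT cerebellum against cerebrum. The cause was not tested for any of these. Of the log2 fold changes of single genes with all libraries kept, 468 stayed on their side of the threshold with the same sign, 30 passed it, 4 lost it and 12 changed sign. With the mean transcript length, 59 of the TPM means by gene and group moved by more than 1 SD. Only that of Hspb1 in WT cerebellum did not. Depth limits Hspa1a and Hspb1 most, the genes with the fewest counts, and the 2 Tol cerebella limit every cerebellum interval.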

Other observations

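The 7 CCT subunits measured, which form the chaperonin for actin and tubulin, were all called lower in WT cerebrum than in WT thymus, with a median log2 fold change of -1.0045, and all lower in WT cerebellum than in WT thymus, with a median of -0.88. The HSP90 co-chaperones had 7 of 11 genes called lower and 0 higher in cerebrum, and 6 lower and 0 higher in cerebellum. The HSP70 co-chaperones had 9 of 13 called higher and 2 lower in cerebrum, and 11 higher and 2 lower in cerebellum. Of the 6 heat shock factors and regulators tested, 5 were called higher and 1 lower in cerebrum, and 5 higher and 0 lower in cerebellum. Over all 66 network genes tested, 30 were called higher and 24 lower in cerebrum, and 33 higher and 20 lower in cerebellum, where 40.9% and 43.4%, and 41.7% and 41.8%, of all genes were called. Both comparisons use the same thymus libraries, and the calls are those of edgeR's quasi-likelihood test.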
